A study of Mus musculus with 9 samples.

Results

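Transcripts of 59 mouse genes that work in G2 phase and mitosis were followed in regulatory T cells (Tregs) after 4 h of interleukin-2 (IL-2). The 59 genes were listed by name and function, and all of them were found among the 23992 gene symbols of the RNA-seq tables. Their roles were cyclins, CDK1 and mitotic kinases (11 genes), the spindle checkpoint and the anaphase-promoting complex (10), kinesin motors (9), centromere and kinetochore (13), spindle-associated proteins (8), cytokinesis (4), and chromosome structure and mitotic entry (4). The cells were Foxp3-GFP+ Tregs from spleens of BALB/c mice, and 3 groups of 3 libraries were compared. One group received 2000000 IU/mL ortho IL-2 for 4 h, a second received 20000 IU/mL wild-type (WT) IL-2 for 4 h, and the third received no IL-2. The ortho dose was 100 times the WT dose, so the ligands were not compared at matched doses. All 9 samples, the controls without IL-2 included, carried the orthogonal IL-2 receptor beta chain (oIL-2Rβ, a receptor altered to bind ortho IL-2) with a human EGFR tag, introduced by transduction. All had also been stimulated for 48 h by CD3/CD28 beads in medium holding human IL-2 at 1000 IU/mL, isolated magnetically by the tag, and then kept overnight without IL-2. Nothing in the labels states if replicate libraries had different mice or cultures as their source, and every p-value covers the spread among the sequenced samples alone, which may be technical.

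IL-2 is a growth factor for activated T cells and Tregs, and signals through the IL-2 receptor beta and common gamma chains to STAT5, PI3K and MAP kinase pathways. In the cell cycle it is best known for moving T cells through G1 into S phase. Genes of G2 and mitosis are transcribed late in the cycle under the MuvB complex, which acts with B-MYB and FOXM1 in G2 and with the DREAM repressors in resting cells, largely through a promoter element called the cell cycle genes homology region (CHR). Their proteins are also controlled by destruction, since the anaphase-promoting complex (APC/C) marks cyclins, securin and many other mitotic proteins for the proteasome. A culture of dividing T cells holds cells in every phase, so a bulk measurement mixes how many cells were in G2 or mitosis with how much of each transcript such a cell held, and these cannot be told apart here.

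The libraries held 16581624 to 58182835 reads assigned to genes. All 8 T cell and Treg markers examined passed the filter on low values, and their summed level ranged over 9439 to 9819 CPM (reads of a gene scaled to a fixed library total) with ortho IL-2, 9696 to 9861 CPM with WT IL-2 and 6390 to 6450 CPM without IL-2. With either ligand 3 of the 8 rose (Il2ra, Tnfrsf18 and Foxp3), 4 fell (Cd3g, Cd4, Ctla4 and Ikzf2) and Cd3e was not called, with a median of -0.20 for ortho IL-2 and -0.17 for WT IL-2. Markers of other cells were mostly below the filter. Of 7 B cell genes 1 passed, Cd79b. All 7 summed to 5.58 to 6.35 CPM with ortho IL-2, 4.91 to 5.65 CPM with WT IL-2 and 5.93 to 6.58 CPM without IL-2. Of 7 CD8 and natural killer genes 1 passed, Cd8b1, and Klra8 was at 0. These 7 summed to 15.2 to 16.6 CPM with ortho IL-2, 15.1 to 16.0 CPM with WT IL-2 and 14.7 to 15.0 CPM without IL-2. Of 10 myeloid genes 1 passed, Itgam. The 10 summed to 10.9 to 11.1 CPM with ortho IL-2, 9.81 to 11.5 CPM with WT IL-2 and 14.8 to 16.7 CPM without IL-2. Of 8 erythroid and stromal genes 1 passed, Pecam1. The 8 summed to 218 to 228 CPM with ortho IL-2, 221 to 226 CPM with WT IL-2 and 278 to 292 CPM without IL-2. Itgam was called lower with ortho IL-2 (-0.62 on the log2 scale) and WT IL-2 (-0.60), as was Pecam1 (-0.37 with either). Their part in the results was not tested. A pair of libraries stood apart. Ortho IL-2 replicate 3 and WT IL-2 replicate 1 differed from the other libraries of their groups by a chi-square per degree of freedom of 24.4 to 24.5 and 30.2 to 36.7, against 6.71 and 7.82 for the remaining ortho and WT pair and 5.08 to 5.95 among the libraries without IL-2. The share of all reads that fell outside the transcripts used was 29.4 ± 3.64% with ortho IL-2, 31.7 ± 2.96% with WT IL-2 and 40.5 ± 2.43% without IL-2 (SD, n = 3 each), so it moved with the groups.

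The 59 genes did not move as a block with ortho IL-2. The APC/C enzymes Ube2s and Ube2c and the APC/C activator Cdc20 rose, to 1.46-fold, 1.26-fold and 1.26-fold the level without IL-2. The motors Kif20b and Kif18a, the spindle protein Hmmr and the centromere histone Cenpa fell on TMM-scaled counts, to 0.744-fold to 0.756-fold, though none of the 59 was called lower with ortho IL-2 on unscaled RPKM. By edgeR's quasi-likelihood test with adjustment over all 10702 tested genes, where a gene is called at an adjusted p under 0.05, 8 of the 59 genes rose, 29 fell and 22 were not called. As a share, 62.7% of the 59 were called, against 56% of all tested genes, so a call by itself was close to the background. The split by direction differed more, with 13.6% higher and 49.2% lower among the 59, against 28.5% higher and 27.4% lower among all tested genes. Their median log2 fold change was -0.13, against 0.01 over all tested genes. All 3 ortho libraries lay above all 3 libraries without IL-2 for 9 of the 59 genes and below them for 32, against 33.9% above and 32.2% below of all tested genes.

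WT IL-2 gave the same 8 higher calls and fewer lower calls, 15 of 59, with 36 not called. That is 39% called, 13.6% higher and 25.4% lower, against 47.9% called, 25% higher and 22.9% lower of all tested genes. The median was -0.10, against 0.01 over all tested genes, and the groups did not overlap for 10 genes above and 26 below (30.3% and 28.5% of all tested genes). The 8 genes higher with either ligand were Cdk1, Plk1, Bub3, Cdc20, Ube2c, Ube2s, Cdca8 and Tpx2. Lower with either ligand were 14 genes, namely Aspm, Cdc25b, Cenpa, Dlgap5, Hmmr, Kif11, Kif18a, Kif20b, Kif23, Kif2c, Melk, Prc1, Pttg1 and Ttk. A further 15 genes passed the test as lower with ortho IL-2 and not with WT IL-2, 1 (Hjurp) with WT IL-2 and not with ortho IL-2, and 21 were called with neither. No gene was higher with one ligand and lower with the other. Both comparisons use the same 3 libraries without IL-2, so their values are set side by side and do not count as separate evidence for each other.

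**Figure D1:**
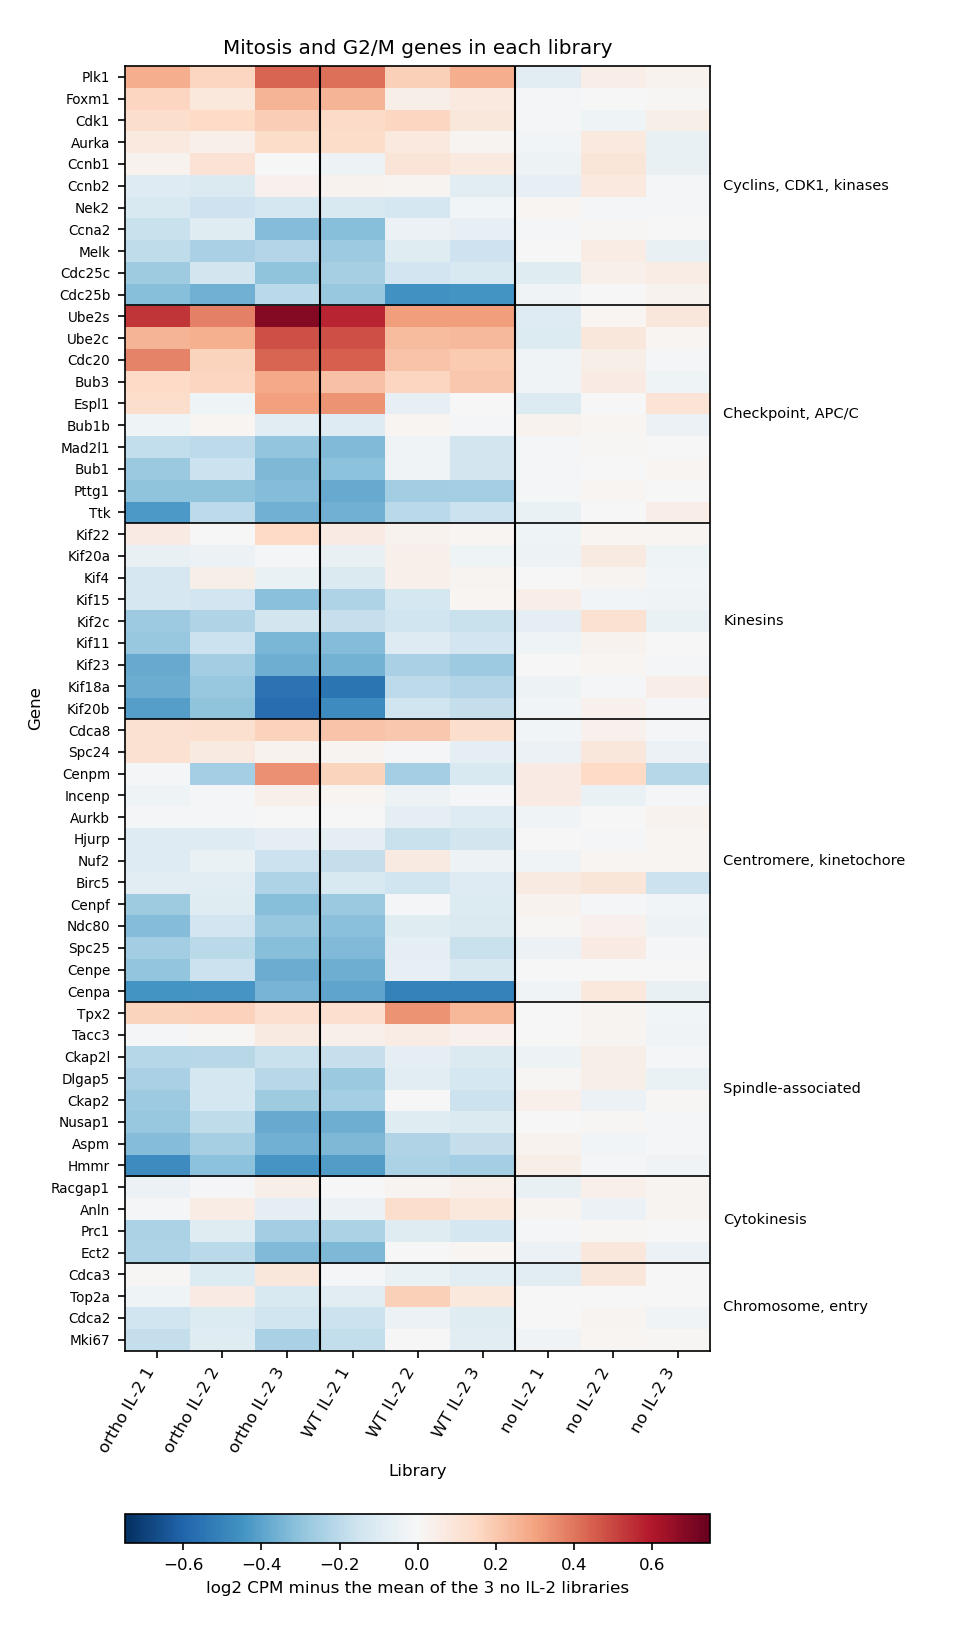
Level of each of the 59 genes (vertical axis, grouped by role) in each of the 9 libraries (horizontal axis), as log2 CPM on TMM-scaled counts minus the mean of the 3 libraries without IL-2. Ube2s, Ube2c, Cdc20 and Plk1 are red in all 6 libraries with IL-2 and Cenpa, Kif18a, Kif20b and Hmmr are blue, while ortho IL-2 replicate 3 and WT IL-2 replicate 1 are the most strongly coloured columns for many genes. On unscaled RPKM 0 of the 59 genes were called lower with ortho IL-2 and 1 (Cenpa) with WT IL-2.

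These counts depended on single libraries, on the scale and on the filter on low values. Leaving out each of the 9 libraries in turn left 5 to 9 higher and 18 to 31 lower calls for ortho IL-2, with 19 lower without ortho IL-2 replicate 1, 18 without ortho IL-2 replicate 3, 19 without the no IL-2 replicate 2, and 5 higher without the no IL-2 replicate 1. The ortho lower share stayed above that of all tested genes in all 9 fits, with 30.5% against 22% as the lowest, without ortho IL-2 replicate 3. For WT IL-2 leaving out each library left 4 to 8 higher and 6 to 20 lower calls, with 8 lower without WT IL-2 replicate 1, 9 without WT IL-2 replicate 3, and 8, 6 and 8 without the no IL-2 replicates 1, 2 and 3, and 4 higher without the no IL-2 replicate 1. Without the no IL-2 replicates, WT lower shares were 13.6%, 10.2% and 13.6%, below the 17.7%, 19.1% and 18.9% of all tested genes. Without ortho IL-2 replicate 1 and WT IL-2 replicates 1 and 3 they were 16.9%, 13.6% and 15.3%, below 21.7%, 21.5% and 21.2%. The share was 33.9%, against 21.2%, without WT IL-2 replicate 2, and near the background without ortho IL-2 replicates 2 or 3. Calls kept in all 9 of these fits were 5 higher and 16 lower for ortho IL-2, and 4 higher and 6 lower for WT IL-2. The higher calls kept were Bub3, Cdc20, Cdk1, Ube2c and Ube2s with ortho IL-2, and Bub3, Cdca8, Tpx2 and Ube2s with WT IL-2. Among the lower calls, Aspm, Cdc25b, Cenpa, Hmmr, Kif23 and Pttg1 were kept in all 9 fits of either comparison. Without ortho IL-2 replicate 3 and WT IL-2 replicate 1 together, an alternative chosen after seeing the data, ortho IL-2 gave 9 higher and 31 lower calls and WT IL-2 gave 9 and 15. For ortho IL-2 that is 15.3% and 52.5%, against 30.3% and 28.8% of all tested genes. For WT IL-2 it is 15.3% and 25.4%, against 27.2% and 26.3%.

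The same counts on a scale without TMM are needed to read the directions. TMM assumes that most genes do not change, and sets the median of all tested genes near 0. On the deposited RPKM values without further scaling, tested with limma on log2(RPKM + 1), the median of all tested genes was 0.247 with ortho IL-2 and 0.188 with WT IL-2. On that scale ortho IL-2 gave 24 higher and 0 lower calls among the 59 and WT IL-2 gave 17 and 1, against 52.3% higher and 8.62% lower, and 41.7% higher and 8.10% lower, of all tested genes. Relative to the median of all tested genes the 2 scales differed less. The median of the 59 genes was 0.146 below it on TMM-scaled counts and 0.112 below it on unscaled RPKM for ortho IL-2, and 0.108 and 0.0807 below it for WT IL-2. All 8 higher calls of either comparison also held on unscaled RPKM, whereas of the lower calls 0 of 29 with ortho IL-2 and 1 of 15 with WT IL-2 (Cenpa) did. Unscaled values lie above TMM-scaled ones for the bulk of genes, so that scale favours higher calls over lower ones. Keeping the higher calls on it is not separate support for them. "Rose", "higher", "fell" and "lower" on TMM-scaled counts below are therefore all statements relative to the bulk of the transcriptome. With the share of reads outside the transcripts as a covariate, which competes with the groups for the same variation, ortho IL-2 gave 0 higher and 2 lower calls (Cdc25b and Cenpa), and WT IL-2 gave 0 and 3 (Cdc25b, Cenpa and Kif23). Calls also dropped across all tested genes, to 8.64% higher and 6.05% lower with ortho IL-2 and 11.4% higher and 8.53% lower with WT IL-2, so the lower shares of the 59, 3.39% and 5.08%, were below the background.

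**Figure D2:**
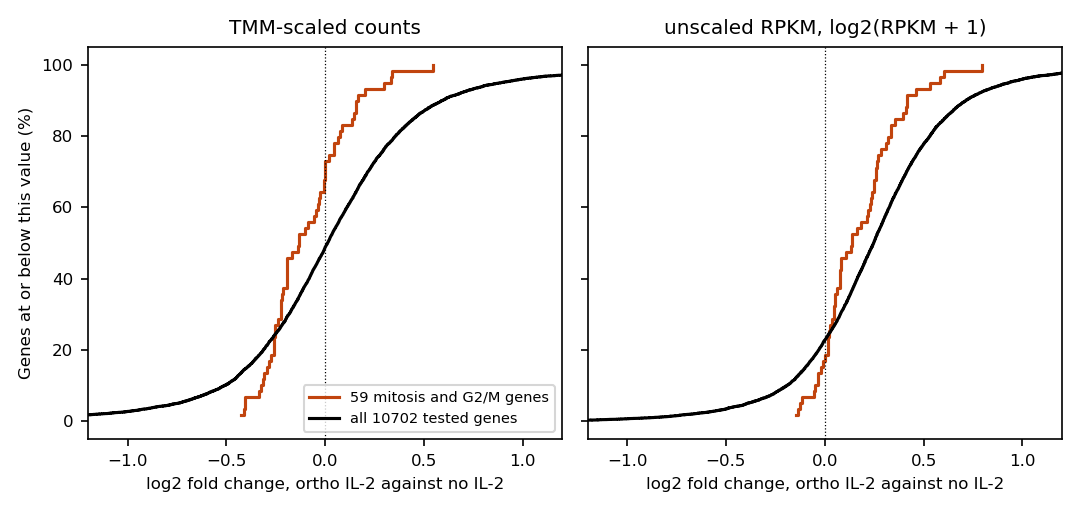
Cumulative share of genes (vertical axis, percent) at or below each log2 fold change of ortho IL-2 against no IL-2 (horizontal axis), for the 59 mitosis and G2/M genes and all 10702 tested genes, on TMM-scaled counts (left) and on unscaled RPKM (right). The curve of the 59 genes lies left of that of all genes over most of the range on both scales, but its median is -0.13 on the left, below 0, and 0.14 on the right, above 0.

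Promoters are shown because the 59 genes are named for their shared timing in the cell cycle. A RefSeq promoter of GRCm38.p6, running from 250 bases before to 50 bases after the annotated start, was found for 49 of the 59 genes. Ccna2, Cdc25c, Foxm1, Kif20a, Spc24, Aurkb, Incenp, Tpx2, Dlgap5 and Cdca2 were not among them. The CHR words TTTGAA or TTCGAA, searched on both strands, occurred in 38 of the 49 promoters (77.6%), against 19.4% of all 27025 promoters of the same length and 14% of those of 7923 tested genes. The word CCAAT, bound by NF-Y and also searched on both strands, occurred in 71.4% of the 49, against 37.9% of all promoters, and both kinds of word together occurred in 65.3%, against 7.7%. A TTTGAA within 30 bases before the start, with a CCAAT within 100 bases before it, was found in 8 of the 49 genes (Cdk1, Cdc20, Ube2c, Espl1, Kif11, Kif22, Ckap2l and Top2a), or 16.3%, against 0.278% of all promoters. The 100 bases before the start are printed 5′ to 3′ for 6 of these 8, to show genes that rose (Cdk1, Cdc20, Ube2c), that fell (Kif11, Ckap2l) and that were not called (Top2a) with ortho IL-2. Capitals mark TTTGAA and CCAAT on either strand, so that TTCAAA and ATTGG are the reverse complements. For Ckap2l and Top2a the start used lies inside the annotated gene, which reaches to chr2:129297228 and chr11:99024199. The last printed bases of both thus fall within the gene as annotated.
Cdk1, chr10:69352913-69353012, minus strand: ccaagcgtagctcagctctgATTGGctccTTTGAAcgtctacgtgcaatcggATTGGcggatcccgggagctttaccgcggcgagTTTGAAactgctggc
Cdc20, chr4:118437344-118437443, minus strand: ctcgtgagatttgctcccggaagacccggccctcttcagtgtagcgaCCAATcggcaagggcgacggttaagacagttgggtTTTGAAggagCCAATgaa
Ube2c, chr2:164769829-164769928, plus strand: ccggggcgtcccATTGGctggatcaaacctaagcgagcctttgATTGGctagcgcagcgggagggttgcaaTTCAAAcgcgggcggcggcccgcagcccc
Kif11, chr19:37376282-37376381, plus strand: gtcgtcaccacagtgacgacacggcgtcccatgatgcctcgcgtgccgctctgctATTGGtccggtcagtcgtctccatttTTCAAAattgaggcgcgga
Ckap2l, chr2:129297213-129297312, minus strand: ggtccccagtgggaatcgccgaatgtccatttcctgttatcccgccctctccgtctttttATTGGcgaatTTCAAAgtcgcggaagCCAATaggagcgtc
Top2a, chr11:99024190-99024289, minus strand: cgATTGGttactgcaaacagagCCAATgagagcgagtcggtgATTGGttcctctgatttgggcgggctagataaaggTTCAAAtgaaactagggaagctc
A CHR word stood in 7 of 7 promoters of genes called higher with ortho IL-2, in 19 of 26 (73.1%) of those called lower and in 12 of 16 (75%) of those not called. A match describes these letters only and is not a measured binding site.

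The 59 genes were well expressed in every group. Each of them had an RPKM of at least 1 in all 9 libraries, with 2.95 RPKM and 97 reads as the lowest values. Per kilobase of transcript, the median of the 59 genes in libraries without IL-2 was 36.1 CPM per kb, against 13.5 CPM per kb over all tested genes, and 56 of the 59 lay above that overall median. The highest levels were those of Mki67 (232 CPM per kb), the proliferation marker Ki-67, Top2a (214), the topoisomerase that untangles sister chromatids, and Cenpa (120), the histone H3 variant of centromeres. Cdc25c (10.5), Espl1 (8.72) and Cenpm (5.74) were lowest. Libraries of cells kept without IL-2 thus held transcripts of all 59 genes. Averaged over the 59 genes, the log2 level relative to the mean without IL-2 was -0.11, -0.08 and -0.10 in the ortho libraries, -0.11, -0.04 and -0.06 in the WT libraries, and -0.02, 0.03 and -0.01 in the libraries without IL-2. On this average, which is on TMM-scaled counts, the ortho and WT libraries all lay below those without IL-2, by little, and ortho and WT overlapped.

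Among cyclins, CDK1 and mitotic kinases, 2 of 11 genes rose and 4 fell with ortho IL-2, and 2 rose and 2 fell with WT IL-2. With ortho IL-2 that is 18.2% higher and 36.4% lower, against 28.5% and 27.4% of all tested genes. With WT IL-2 it is 18.2% for both, against 25% and 22.9%. On unscaled RPKM the counts were 5 higher and 0 lower with either ligand. The shares of all tested genes on that scale were 52.3% and 8.62% with ortho IL-2, and 41.7% and 8.1% with WT IL-2. Cdk1, the kinase that drives entry into mitosis, had 77.5, 78.5 and 80.4 CPM with ortho IL-2, 78.1, 79.1 and 75.03 CPM with WT IL-2, and 70.0, 69.1 and 72.8 CPM without IL-2. All libraries with IL-2 lay above all libraries without it. The log2 fold change by edgeR was 0.16 (SE 0.04, adjusted p = 0.0119) with ortho IL-2 and 0.13 (SE 0.04, adjusted p = 0.03) with WT IL-2. For WT IL-2 this call was lost without WT IL-2 replicate 2 or the no IL-2 replicates 1 or 2 (adjusted p = 0.0838 to 0.103 by edgeR). Ccnb1, the B-type cyclin that activates CDK1, had 98.0, 104 and 96.7 CPM with ortho IL-2, 93.8, 103 and 101 CPM with WT IL-2, and 93.9, 103 and 92.7 CPM without IL-2. The groups overlapped, and edgeR gave 0.04 (SE 0.06, adjusted p = 0.552) with ortho IL-2 and 0.04 (SE 0.06, adjusted p = 0.572) with WT IL-2. Ccnb1 has near copies at Ccnb1-ps, Gm12856, Gm7483 and Gm8416, with which reads could be split.

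Plk1, the polo-like kinase of mitotic entry, spindle assembly and exit, had 60.05, 55.6 and 67.2 CPM with ortho IL-2, 66.2, 56.2 and 59.9 CPM with WT IL-2, and 47.1, 51.4 and 50.6 CPM without IL-2. Every library with IL-2 exceeded every library without it, with ortho IL-2 replicate 3 and WT IL-2 replicate 1 the highest. Its log2 fold change by edgeR was 0.30 (SE 0.08, adjusted p = 0.0119) with ortho IL-2 and 0.29 (SE 0.08, adjusted p = 0.015) with WT IL-2, and both calls were lost without the no IL-2 replicate 1 (adjusted p = 0.0531 for ortho IL-2 and 0.0666 for WT IL-2 by edgeR). With offsets for GC content it was 0.10 with ortho IL-2, not called, and 0.16 with WT IL-2, called. Foxm1, the transcription factor that activates many G2/M genes, had 110.5, 104 and 118 CPM with ortho IL-2, 118, 102 and 104 CPM with WT IL-2, and 97.8, 99.0 and 99.3 CPM without IL-2. The groups with IL-2 lay above the group without it, but edgeR did not call the gene with ortho IL-2 (0.17, adjusted p = 0.05002, just above the threshold) or with WT IL-2 (0.13, adjusted p = 0.132).

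Cdc25b, a phosphatase that switches CDK1 on, moved the other way, with 287, 279 and 311 CPM with ortho IL-2, 294, 262 and 262 CPM with WT IL-2, and 352, 358 and 364 CPM without IL-2. Libraries with IL-2 were all below those without it, and WT IL-2 replicates 2 and 3 were the lowest. The log2 fold change by edgeR was -0.29 (SE 0.06, adjusted p = 0.00226) with ortho IL-2 and -0.39 (SE 0.06, adjusted p = 0.000389) with WT IL-2. The gene lies at chr2:131186436-131198511 on the plus strand of GRCm38 (mm10), and its transcript is richer in G and C (54.2%) than most of the genes that fell. Melk, a kinase that peaks in mitosis, had 53.8, 51.9 and 52.8 CPM with ortho IL-2, 50.9, 57.6 and 55.3 CPM with WT IL-2, and 61.6, 63.8 and 59.1 CPM without IL-2. All IL-2 libraries again lay below, with log2 fold changes by edgeR of -0.22 (SE 0.06, adjusted p = 0.0081) with ortho IL-2 and -0.17 (SE 0.06, adjusted p = 0.0279) with WT IL-2. The WT call was lost without WT IL-2 replicates 1 or 3 or the no IL-2 replicates 1 or 2 (adjusted p = 0.0526 to 0.0996 by edgeR). Cdc25c, a second CDK1 phosphatase, and Nek2, a kinase of centrosome separation, fell with ortho IL-2 (-0.24 and -0.13) and were not called with WT IL-2 (-0.17 and -0.09). The ortho call of Cdc25c was lost without ortho IL-2 replicates 1 or 3 or the no IL-2 replicates 2 or 3, and that of Nek2 without any 1 of the ortho or no IL-2 replicates. Aurka, Ccna2 and Ccnb2 passed the test in neither comparison.

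Checkpoint and APC/C genes held both the largest rises and clear falls. Of 10 genes, 4 rose and 4 fell with ortho IL-2, and 4 rose and 2 fell with WT IL-2, against 6 higher and 0 lower, and 4 higher and 0 lower, on unscaled RPKM. The shares on TMM-scaled counts were 40% and 40%, against 28.5% and 27.4% of all tested genes, and 40% and 20%, against 25% and 22.9%. On unscaled RPKM 52.3% of all tested genes were higher with ortho IL-2 and 41.7% with WT IL-2. Ube2s, the enzyme that extends ubiquitin chains on APC/C substrates, had 91.9, 82.5 and 102 CPM with ortho IL-2, 94.1, 78.7 and 78.7 CPM with WT IL-2, and 59.2, 64.1 and 67.1 CPM without IL-2. All 6 libraries with IL-2 lay well above all 3 without it. The log2 fold change by edgeR was 0.54 (SE 0.10, adjusted p = 0.000988) with ortho IL-2 and 0.40 (SE 0.10, adjusted p = 0.00615) with WT IL-2, and with offsets for GC content (described further on) it was 0.27 with ortho IL-2 and 0.23 with WT IL-2. The gene lies at chr7:4808014-4812340 on the minus strand, and 183 bases of its exons overlap those of Rpl28 on the other strand, so reads of the pair cannot be separated if strand was not used. Rpl28 was far more abundant than Ube2s, at means of 441 CPM with ortho IL-2, 421 CPM with WT IL-2 and 399 CPM without IL-2. Rpl28 itself was not called with ortho IL-2, with a log2 fold change of 0.15 (adjusted p = 0.174 by edgeR). Its part in the Ube2s values was not tested.

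Cdc20, which activates the APC/C at anaphase and is held back by the spindle checkpoint, had 94.4, 82.1 and 98.8 CPM with ortho IL-2, 99.7, 84.8 and 83.8 CPM with WT IL-2, and 71.7, 75.3 and 72.2 CPM without IL-2. Levels with IL-2 exceeded all levels without it, and again ortho IL-2 replicate 3 and WT IL-2 replicate 1 were the highest of their groups. The log2 fold change by edgeR was 0.33 (SE 0.08, adjusted p = 0.0078) with ortho IL-2 and 0.29 (SE 0.08, adjusted p = 0.0162) with WT IL-2, the second of which was lost without the no IL-2 replicates 1 or 3 (adjusted p = 0.0595 and 0.0513 by edgeR). GC offsets lowered these to 0.15 with ortho IL-2 and 0.17 with WT IL-2, both still called. Cdc20 (chr4:118432901-118437343, minus strand) shares 53 bases of exon with Elovl1, which rose by 0.62 on the log2 scale (adjusted p = 0.000278 by edgeR, ortho IL-2). Ube2c, the enzyme that starts ubiquitin chains for the APC/C, had 119, 120.1 and 139.6 CPM with ortho IL-2, 139.8, 118 and 118 CPM with WT IL-2, and 93.4, 106 and 101 CPM without IL-2. As for Ube2s, the groups did not overlap, with all IL-2 libraries above and log2 fold changes by edgeR of 0.34 (SE 0.09, adjusted p = 0.009) with ortho IL-2 and 0.32 (SE 0.09, adjusted p = 0.0124) with WT IL-2. Its WT call was lost without the no IL-2 replicate 1. Bub3, a scaffold of the spindle checkpoint, had 109, 110.4 and 120.1 CPM with ortho IL-2, 115, 110.1 and 113 CPM with WT IL-2, and 96.7, 103 and 96.4 CPM without IL-2. Its IL-2 groups did not overlap the group without IL-2 either, at 0.20 (SE 0.05, adjusted p = 0.00809) with ortho IL-2 and 0.19 (SE 0.05, adjusted p = 0.0112) with WT IL-2 by edgeR.

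Pttg1, securin, which holds separase in check until the APC/C destroys it, had 49.5, 49.5 and 48.7 CPM with ortho IL-2, 47.0, 50.9 and 51.2 CPM with WT IL-2, and 60.5, 61.6 and 60.9 CPM without IL-2. The 6 IL-2 libraries formed a narrow band below the 3 without IL-2. Its log2 fold change by edgeR was -0.31 (SE 0.05, adjusted p = 0.000413) with ortho IL-2 and -0.30 (SE 0.05, adjusted p = 0.000594) with WT IL-2, and the call was kept in all 9 leave-one-out fits of both comparisons. Separase itself, Espl1, was not called (0.15 with ortho IL-2 and 0.10 with WT IL-2). Ttk, the checkpoint kinase MPS1, had 66.7, 78.5 and 70.0 CPM with ortho IL-2, 69.9, 78.1 and 80.2 CPM with WT IL-2, and 86.8, 89.6 and 93.1 CPM without IL-2, and both IL-2 groups lay below the group without IL-2. EdgeR gave -0.33 (SE 0.07, adjusted p = 0.00386) with ortho IL-2 and -0.24 (SE 0.07, adjusted p = 0.02) with WT IL-2, and GC offsets brought these to -0.16 with ortho IL-2 and -0.14 with WT IL-2, both still called. The WT call of Ttk was lost without WT IL-2 replicate 1 or the no IL-2 replicates 2 or 3. Bub1, a checkpoint kinase that recruits other checkpoint proteins to kinetochores, had 125, 135 and 120.2 CPM with ortho IL-2, 123, 149 and 138 CPM with WT IL-2, and 149.97, 152 and 153 CPM without IL-2. Both IL-2 groups lay below, WT IL-2 replicate 2 only just, and edgeR called the ortho difference, -0.26 (SE 0.07, adjusted p = 0.0117), but not the WT difference, -0.15 (SE 0.07, adjusted p = 0.103). Mad2l1, the checkpoint protein that binds Cdc20, fell with ortho IL-2 (-0.23) and was not called with WT IL-2 (-0.16), a call lost without ortho IL-2 replicate 3 or any of the no IL-2 replicates, and it has a near copy at Gm42430. Bub1b, the BubR1 kinase, was called in neither (-0.03 with ortho IL-2 and -0.03 with WT IL-2).

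**Figure D3:**
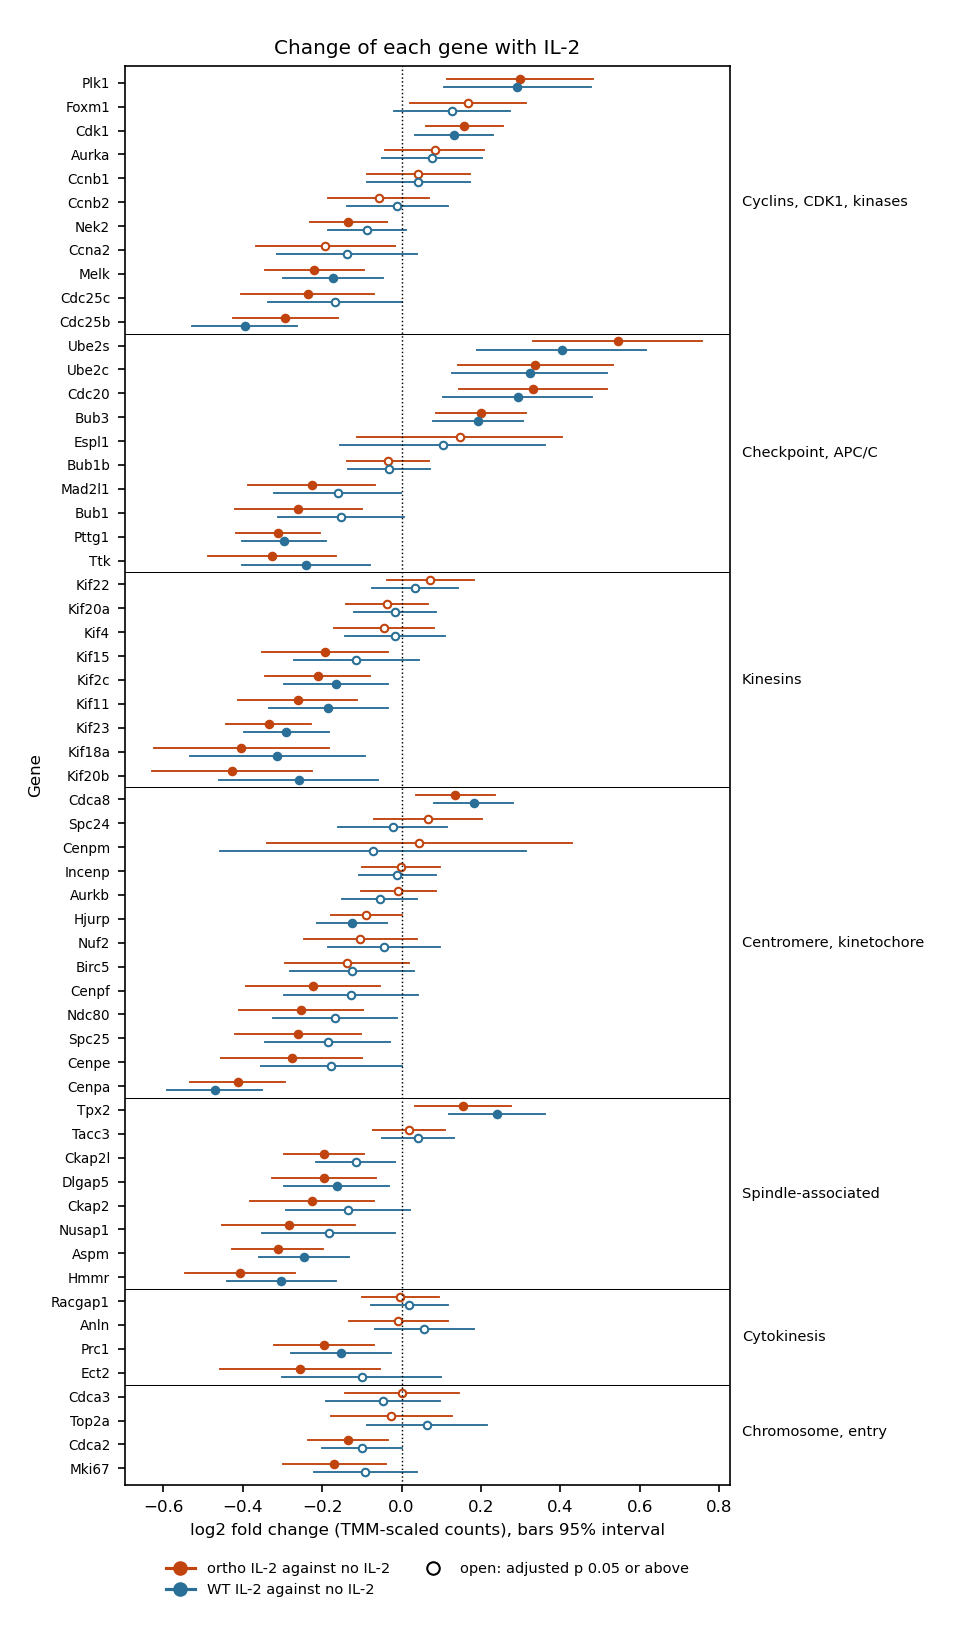
Log2 fold change on TMM-scaled counts (horizontal axis, bars 95% interval) of each gene (vertical axis, by role) for ortho IL-2 and WT IL-2, each against no IL-2; filled points were called by edgeR and open points were not. Ube2s, Ube2c, Cdc20 and Plk1 stand furthest right and Kif20b, Hmmr, Cenpa and Kif18a furthest left for ortho IL-2; on unscaled RPKM the genes on the left were not called lower, except Cenpa with WT IL-2.

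Kinesins gave no higher call, with 6 of 9 genes lower with ortho IL-2 and 5 of 9 with WT IL-2, against 3 higher and 0 lower, and 1 higher and 0 lower, on unscaled RPKM. The lower shares on TMM-scaled counts were 66.7% and 55.6%, against 27.4% and 22.9% of all tested genes. On unscaled RPKM 52.3% of all tested genes were higher with ortho IL-2 and 41.7% with WT IL-2. Kif23, the central spindle motor MKLP1, had 134, 146 and 136 CPM with ortho IL-2, 136, 148 and 145 CPM with WT IL-2, and 175, 177 and 173 CPM without IL-2. None of the IL-2 libraries reached the lowest library without IL-2. The log2 fold change by edgeR was -0.33 (SE 0.05, adjusted p = 0.000269) with ortho IL-2 and -0.29 (SE 0.05, adjusted p = 0.00073) with WT IL-2, which was kept in all 9 leave-one-out fits of both comparisons. Kif20b, a motor that acts late in cytokinesis, had 139, 150.1 and 125 CPM with ortho IL-2, 134, 167 and 164 CPM with WT IL-2, and 183, 189 and 184 CPM without IL-2. Ortho IL-2 replicate 3 and WT IL-2 replicate 1 were the lowest libraries, and all IL-2 libraries were below those without IL-2. Its log2 fold change by edgeR was -0.43 (SE 0.09, adjusted p = 0.00293) with ortho IL-2 and -0.26 (SE 0.09, adjusted p = 0.0367) with WT IL-2, and the WT call was lost without ortho IL-2 replicate 1, WT IL-2 replicate 1 or any of the no IL-2 replicates (adjusted p = 0.0519 to 0.1003 by edgeR). GC offsets brought it to -0.15 with ortho IL-2 and -0.08 with WT IL-2, both still called.

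Kif18a, which dampens the swinging of chromosomes at the metaphase plate, had 39.9, 42.4 and 35.3 CPM with ortho IL-2, 35.4, 45.2 and 44.4 CPM with WT IL-2, and 50.4, 51.3 and 53.5 CPM without IL-2. The same pair of libraries was lowest, and the IL-2 groups lay below the group without IL-2. EdgeR gave -0.40 (SE 0.10, adjusted p = 0.0067) with ortho IL-2 and -0.31 (SE 0.10, adjusted p = 0.025) with WT IL-2, and the WT call was lost without any 1 of the no IL-2 replicates (adjusted p = 0.0512 to 0.0766 by edgeR). With GC offsets it was -0.09 with ortho IL-2, not called, and -0.10 with WT IL-2, called. Kif11, the motor that pushes spindle poles apart, had 259.7, 283 and 249 CPM with ortho IL-2, 252, 295 and 286 CPM with WT IL-2, and 309, 322 and 316 CPM without IL-2. Again no library with IL-2 reached those without it, although WT IL-2 replicate 2 came close. EdgeR gave -0.26 (SE 0.07, adjusted p = 0.00854) with ortho IL-2 and -0.18 (SE 0.07, adjusted p = 0.0442) with WT IL-2, where the WT call was lost without ortho IL-2 replicate 1, WT IL-2 replicates 1 or 3, or any of the no IL-2 replicates (adjusted p = 0.0588 to 0.12 by edgeR). GC offsets ended both Kif11 calls, at -0.08 with ortho IL-2 and -0.07 with WT IL-2. Kif20a, a motor of the central spindle, had 121, 122 and 125 CPM with ortho IL-2, 121, 129.5 and 123 CPM with WT IL-2, and 123, 132 and 123 CPM without IL-2, and its groups overlapped. It was not called (-0.04 with ortho IL-2 and -0.02 with WT IL-2), and 1271 bases of its exons overlap those of Cdc23. Kif2c, which depolymerises microtubules at kinetochores, fell with ortho and WT IL-2 (-0.21 with ortho IL-2 and -0.16 with WT IL-2). Its ortho call was lost without ortho IL-2 replicate 1 or the no IL-2 replicate 2, and its WT call, kept in 8 of 21 alternatives, without ortho IL-2 replicates 1 or 2, any of the WT IL-2 replicates, or the no IL-2 replicates 2 or 3. Kif15 fell with ortho IL-2 (-0.19), a call lost without ortho IL-2 replicate 3, WT IL-2 replicate 2 or any of the no IL-2 replicates. The chromosome-arm motors Kif4 and Kif22 were called in neither comparison.

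At the centromere and kinetochore, 1 of 13 genes rose and 5 fell with ortho IL-2, and 1 rose and 2 fell with WT IL-2, against 4 higher and 0 lower, and 2 higher and 1 lower, on unscaled RPKM. The shares on TMM-scaled counts were 7.69% and 38.5%, against 28.5% and 27.4% of all tested genes, and 7.69% and 15.4%, against 25% and 22.9%. On unscaled RPKM 52.3% of all tested genes were higher with ortho IL-2 and 41.7% with WT IL-2. Cenpa, the histone variant that marks centromeres, had 118, 118 and 126 CPM with ortho IL-2, 122, 113 and 113 CPM with WT IL-2, and 158, 169.8 and 155 CPM without IL-2. All 6 libraries with IL-2 lay far below all 3 without it, with WT IL-2 replicates 2 and 3 the lowest. Its log2 fold change by edgeR was -0.41 (SE 0.05, adjusted p = 0.000141) with ortho IL-2 and -0.47 (SE 0.05, adjusted p = 6.23e-05) with WT IL-2. Among the 59 genes it was the 1 lower call that also held on unscaled RPKM, at -0.25 with WT IL-2, and the WT call held in all 21 alternatives run. The gene lies at chr5:30666877-30674837 on the plus strand and overlaps the exons of no other annotated gene. Hjurp, the chaperone that loads CENP-A, had 632, 632 and 642 CPM with ortho IL-2, 642, 603 and 615 CPM with WT IL-2, and 676, 671 and 682 CPM without IL-2. The IL-2 libraries were slightly lower throughout, and edgeR called the WT difference, -0.12 (SE 0.04, adjusted p = 0.0262), but not the ortho difference, -0.09 (SE 0.04, adjusted p = 0.0821). The WT call was kept in 10 of 21 alternatives and was lost without WT IL-2 replicates 2 or 3 or any of the no IL-2 replicates. With GC offsets Hjurp was called lower with both ligands, at -0.09 with ortho IL-2 and -0.12 with WT IL-2.

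The chromosomal passenger complex corrects faulty attachments and then acts in cytokinesis, and 1 of its 4 genes was called in the main test, against 56% of all tested genes with ortho IL-2 and 47.9% with WT IL-2. Cdca8, borealin, had 61.5, 61.5 and 63.8 CPM with ortho IL-2, 65.7, 65.2 and 62.1 CPM with WT IL-2, and 56.0, 58.1 and 56.1 CPM without IL-2. Its libraries with IL-2 all exceeded those without it, with log2 fold changes by edgeR of 0.14 (SE 0.04, adjusted p = 0.0264) for ortho IL-2 and 0.18 (SE 0.04, adjusted p = 0.0074) for WT IL-2. The ortho call was lost without ortho IL-2 replicates 1 or 3 or the no IL-2 replicates 1 or 3 (adjusted p = 0.0557 to 0.0951 by edgeR), with GC offsets (0.04) it was lost too, and 232 bases of Cdca8 exon overlap 9930104L06Rik. Aurkb, the kinase of the complex, had 76.7, 77.0 and 77.6 CPM with ortho IL-2, 77.3, 74.1 and 72.5 CPM with WT IL-2, and 76.2, 77.5 and 79.0 CPM without IL-2. These values overlapped, and the 95% interval of the log2 difference was -0.10 to 0.09 for ortho IL-2 and -0.15 to 0.04 for WT IL-2. With GC offsets Aurkb was called lower in both comparisons, at -0.09 with ortho IL-2 and -0.10 with WT IL-2, and on unscaled RPKM higher with ortho IL-2 (0.26). Birc5, survivin, had 99.99, 99.8 and 89.9 CPM with ortho IL-2, 97.6, 95.4 and 99.0 CPM with WT IL-2, and 111, 112 and 94.7 CPM without IL-2. No IL-2 replicate 3 was lower than many IL-2 libraries, so the groups overlapped and neither difference was called (-0.14 with ortho IL-2 and -0.12 with WT IL-2). Incenp, the scaffold, was not called either, with intervals of -0.10 to 0.10 with ortho IL-2 and -0.11 to 0.09 with WT IL-2. GC offsets gave -0.15 with ortho IL-2, called lower, and -0.10 with WT IL-2, not called, whereas unscaled RPKM gave higher calls of 0.27 with ortho IL-2 and 0.20 with WT IL-2. On unscaled RPKM the median of all tested genes was 0.247 with ortho IL-2 and 0.188 with WT IL-2. The higher calls of Aurkb and Incenp there were thus near the bulk of genes.

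The Ndc80 complex, which holds microtubules at the kinetochore, has 4 subunits among the 59 genes. Spc25 had 41.9, 43.6 and 40.1 CPM with ortho IL-2, 39.8, 47.7 and 44.6 CPM with WT IL-2, and 48.6, 52.2 and 49.5 CPM without IL-2, and both IL-2 groups lay below the group without IL-2. EdgeR called the ortho difference, -0.26 (SE 0.07, adjusted p = 0.011), and not the WT difference, -0.19 (SE 0.07, adjusted p = 0.052). Ndc80 itself fell likewise with ortho IL-2 (-0.25) and was not called with WT IL-2 (-0.17), whereas Nuf2 (-0.10 with ortho IL-2 and -0.04 with WT IL-2) and Spc24 (0.07 with ortho IL-2 and -0.02 with WT IL-2) were called in neither. Cenpe, a kinetochore motor, and Cenpf, a large kinetochore protein, fell with ortho IL-2 (-0.28 and -0.22) and not with WT IL-2 by this test (-0.18 and -0.13). The Cenpe call was lost without ortho IL-2 replicate 3, and the Cenpf call without ortho IL-2 replicates 1 or 3 or any of the no IL-2 replicates. Cenpm was called in neither comparison, but with GC offsets it was called lower with ortho IL-2 (-0.27).

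**Figure D4:**
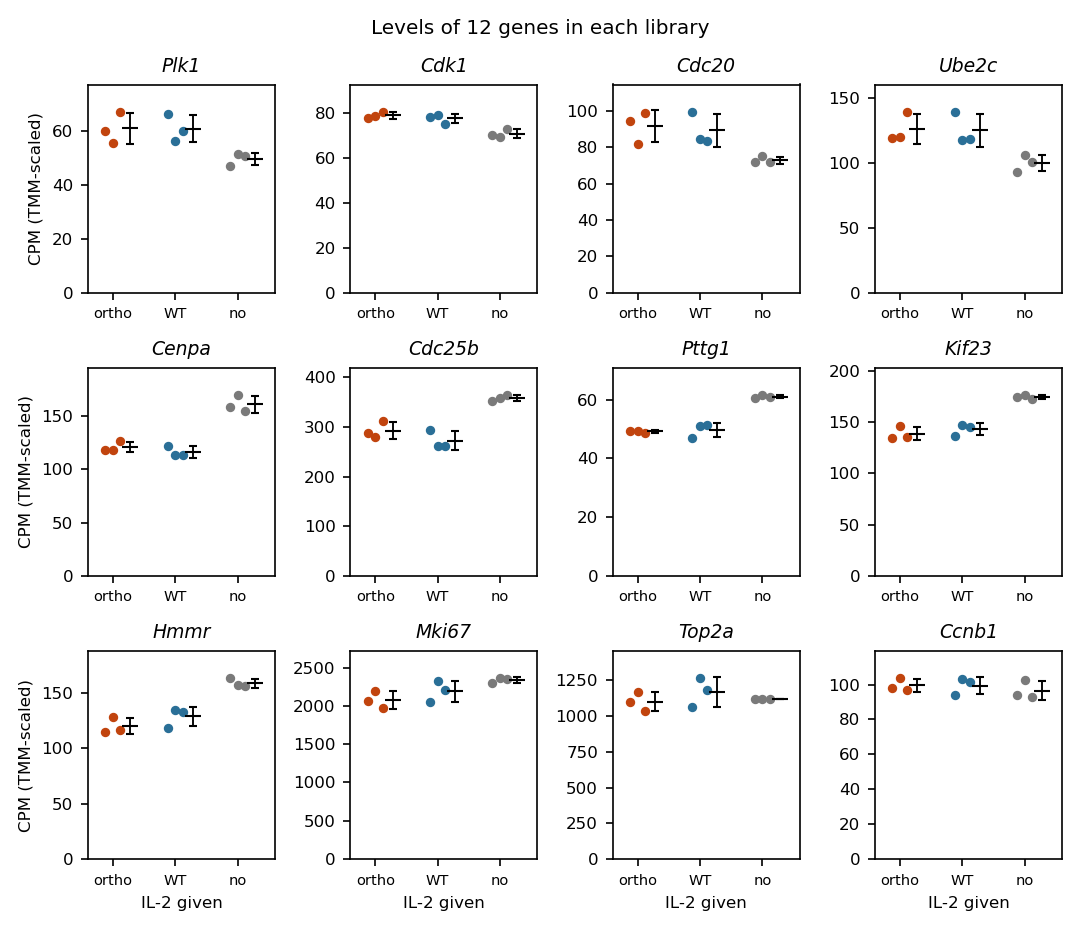
Levels (vertical axis, CPM on TMM-scaled counts) of 12 of the genes in each library, by IL-2 given (horizontal axis), with the mean and SD of the 3 libraries of each group. Plk1, Cdk1, Cdc20 and Ube2c sit higher and Cenpa, Cdc25b, Pttg1, Kif23 and Hmmr lower in all 6 IL-2 libraries than in the 3 without IL-2, while Top2a and Ccnb1 overlap; of these falls, on unscaled RPKM only Cenpa with WT IL-2 was called.

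Spindle-associated genes gave 1 higher and 6 lower calls of 8 with ortho IL-2, and 1 higher and 3 lower with WT IL-2, against 2 higher and 0 lower with either ligand on unscaled RPKM. The shares on TMM-scaled counts were 12.5% and 75%, against 28.5% and 27.4% of all tested genes, and 12.5% and 37.5%, against 25% and 22.9%. On unscaled RPKM 52.3% of all tested genes were higher with ortho IL-2 and 41.7% with WT IL-2. Hmmr, which helps to focus and orient the spindle, had 115, 129 and 117 CPM with ortho IL-2, 119, 135 and 133 CPM with WT IL-2, and 164, 157 and 156 CPM without IL-2. The IL-2 libraries were all below the others by a wide gap. Its log2 fold change by edgeR was -0.41 (SE 0.06, adjusted p = 0.000397) with ortho IL-2 and -0.30 (SE 0.06, adjusted p = 0.00273) with WT IL-2, and GC offsets gave -0.21 with ortho IL-2 and -0.18 with WT IL-2. Aspm, a protein of spindle poles, had 272, 286 and 265 CPM with ortho IL-2, 269.7, 291 and 301 CPM with WT IL-2, and 347, 336 and 339 CPM without IL-2. Here too the groups did not overlap, with -0.31 (SE 0.05, adjusted p = 0.000652) for ortho IL-2 and -0.25 (SE 0.05, adjusted p = 0.00305) for WT IL-2 by edgeR, and -0.18 with ortho IL-2 and -0.17 with WT IL-2 after GC offsets. Both Hmmr and Aspm were called in all 9 leave-one-out fits of both comparisons.

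Tpx2, which activates Aurora A and seeds spindle microtubules, was the exception, with 221, 222 and 214 CPM with ortho IL-2, 215, 249 and 233 CPM with WT IL-2, and 196, 199.8 and 194 CPM without IL-2. Every IL-2 library exceeded every library without IL-2, and WT IL-2 replicate 2 was the highest. EdgeR gave 0.15 (SE 0.05, adjusted p = 0.0333) with ortho IL-2 and 0.24 (SE 0.05, adjusted p = 0.00467) with WT IL-2. The ortho call was lost without ortho IL-2 replicates 1 or 2 or any of the no IL-2 replicates (adjusted p = 0.0618 to 0.0949 by edgeR), while the WT call was kept in all 9 fits. Nusap1, Ckap2 and Ckap2l, which bind or stabilise spindle microtubules, fell with ortho IL-2 (-0.28, -0.23 and -0.19) and were not called with WT IL-2 (-0.18, -0.13 and -0.12). Dlgap5 fell with both (-0.20 with ortho IL-2 and -0.16 with WT IL-2), and Tacc3 was called in neither. The ortho call of Dlgap5 was lost without ortho IL-2 replicate 1 or the no IL-2 replicates 1 or 2. Its WT call, kept in 9 of 21 alternatives, was lost without ortho IL-2 replicate 1, WT IL-2 replicates 1 or 3 or any of the no IL-2 replicates, and without ortho IL-2 replicate 3 and WT IL-2 replicate 1 together. Ckap2 lost its call without ortho IL-2 replicates 1 or 3 or the no IL-2 replicates 1 or 3.

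Of the 4 cytokinesis genes, 2 fell with ortho IL-2 and 1 with WT IL-2, against 2 higher and 0 lower with either ligand on unscaled RPKM. The lower shares on TMM-scaled counts were 50% and 25%, against 27.4% and 22.9% of all tested genes. On unscaled RPKM 52.3% of all tested genes were higher with ortho IL-2 and 41.7% with WT IL-2. Prc1, which bundles the microtubules of the central spindle, had 175, 193 and 172 CPM with ortho IL-2, 174, 193 and 188 CPM with WT IL-2, and 204, 207 and 207 CPM without IL-2. All IL-2 libraries lay below those without IL-2, at -0.20 (SE 0.06, adjusted p = 0.0147) with ortho IL-2 and -0.15 (SE 0.06, adjusted p = 0.0467) with WT IL-2 by edgeR. The ortho call was lost without ortho IL-2 replicates 1 or 3 (adjusted p = 0.0565 and 0.0521 by edgeR), and the WT call without ortho IL-2 replicate 1, WT IL-2 replicates 1 or 3, or any of the no IL-2 replicates (adjusted p = 0.0636 to 0.114 by edgeR). Ect2, the exchange factor that activates RhoA at the cleavage plane, had 107, 109 and 99.6 CPM with ortho IL-2, 99.1, 126 and 127 CPM with WT IL-2, and 122, 133 and 122 CPM without IL-2. Only the ortho libraries lay clear of those without IL-2, since WT IL-2 replicates 2 and 3 were among them. EdgeR called the ortho difference, -0.26 (SE 0.09, adjusted p = 0.0343), which was lost without ortho IL-2 replicates 1 or 3 or any of the no IL-2 replicates (adjusted p = 0.0572 to 0.119 by edgeR), and did not call the WT difference, -0.10 (SE 0.09, adjusted p = 0.381). Anln, which scaffolds the contractile ring, had 106, 111 and 102 CPM with ortho IL-2, 104, 118 and 113 CPM with WT IL-2, and 109, 104 and 109 CPM without IL-2, with overlapping groups and no call (-0.01 with ortho IL-2 and 0.06 with WT IL-2). Racgap1, the partner of Ect2 and Kif23 at the central spindle, was not called, with 95% intervals of -0.10 to 0.09 with ortho IL-2 and -0.08 to 0.12 with WT IL-2.

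Top2a and Mki67 were the most abundant of the 59 per kilobase. In the main test Top2a was called in neither comparison, and Mki67 was called lower with ortho IL-2. Top2a had 1096, 1167 and 1034 CPM with ortho IL-2, 1060.1, 1265 and 1182 CPM with WT IL-2, and 1117, 1121 and 1118 CPM without IL-2. The libraries without IL-2 lay inside the spread of the others, and the 95% interval of the log2 difference was -0.18 to 0.13 for ortho IL-2 and -0.09 to 0.21 for WT IL-2. With GC offsets Top2a was called higher with both ligands, at 0.13 with ortho IL-2. Mki67 had 2065, 2197 and 1973 CPM with ortho IL-2, 2054, 2328 and 2201 CPM with WT IL-2, and 2295, 2363 and 2352 CPM without IL-2. The ortho libraries lay below those without IL-2, WT IL-2 replicate 2 did not, and edgeR called the ortho difference, -0.17 (SE 0.06, adjusted p = 0.0317), and not the WT difference, -0.09 (SE 0.06, adjusted p = 0.222). That ortho call was lost without ortho IL-2 replicates 1 or 3 or any of the no IL-2 replicates (adjusted p = 0.0591 to 0.106 by edgeR), and Mki67 has a near copy at Gm44521. Cdca2, a targeting subunit that returns chromosomes to interphase state, had 84.5, 87.6 and 84.7 CPM with ortho IL-2, 83.8, 91.1 and 88.1 CPM with WT IL-2, and 94.1, 95.3 and 92.2 CPM without IL-2. Its ortho and WT libraries lay below those without IL-2. EdgeR called the ortho difference, -0.13 (SE 0.05, adjusted p = 0.0288), which was lost without ortho IL-2 replicates 1 or 3 or the no IL-2 replicates 1 or 2 (adjusted p = 0.0788 to 0.0916 by edgeR), and not the WT difference, -0.10 (SE 0.05, adjusted p = 0.0948). Cdca3, which promotes mitotic entry, was not called in either comparison. On TMM-scaled counts 50% of these 4 genes were lower with ortho IL-2 and 0% with WT IL-2, against 27.4% and 22.9% of all tested genes. On unscaled RPKM these 4 genes gave 2 higher and 0 lower calls with ortho IL-2, and 1 higher and 0 lower with WT IL-2. The shares of all tested genes on that scale were 52.3% and 8.62%, and 41.7% and 8.1%.

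Ortho IL-2 was set against WT IL-2 to ask whether the receptor pair gives the response of the natural ligand, at the unmatched doses above. By edgeR, 0 of the 59 genes and 0% of all tested genes were called, and 0 of the 59 had an unadjusted p under 0.05, against 149 of all tested genes. DESeq2 also called 0 of the 59. The median log2 difference was -0.04, the largest differences were those of Kif20b (-0.17), Ect2 (-0.16) and Ube2s (0.14), and 1 gene, Spc24, did not overlap between the groups (higher in ortho), against 2.42% above and 2.23% below of all tested genes. Spc24 had 28.8, 27.7 and 27.0 CPM with ortho IL-2, 26.9, 26.4 and 25.2 CPM with WT IL-2, and 25.7, 28.2 and 25.7 CPM without IL-2. The 95% intervals bound what could have been missed. All 59 of them lay within a 1.5-fold difference either way, 55 lay within 1.25-fold, and the widest bounds were -0.37 and 0.49 on the log2 scale. The largest change of any of the 59 with IL-2 was itself 1.46-fold (Ube2s with ortho IL-2), inside the 1.5-fold bound. Such intervals cannot show that the ligands acted alike on these genes. Thus the genes that passed the test with ortho IL-2 and not with WT IL-2 were not shown to differ between the ligands. Without WT IL-2 replicate 1, 22 of the 59 and 2616 of all tested genes had an unadjusted p under 0.05, with 0.173 as the smallest adjusted p of the 59 by edgeR. Without that library and ortho IL-2 replicate 3 together there were 13 of the 59 and 1684 of all tested genes, with 0.25 as the smallest.

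The base composition of the transcripts moved with the results. The median G and C content was 47.8% for the 59 genes and 50% for all tested genes. Across the 59 genes, Pearson's r between GC content and log2 fold change was 0.73 for ortho IL-2 and 0.56 for WT IL-2 against no IL-2, and 0.84 for ortho against WT IL-2; across 10657 tested genes with a GC value it was 0.34, 0.25 and 0.47. These are correlations across genes measured in the same libraries, and genes are not independent replicates. Of 18 genes under 45% GC, 15 fell and 0 rose with ortho IL-2, against 45.9% and 10.7% of all tested genes in that range. Between 45 and 50% GC, 11 of 20 fell and 2 rose, against 35.2% and 22.4%. Over 50% GC, 6 of 21 rose and 3 fell, against 40.4% and 14.5% of all tested genes. With WT IL-2, 6 of 18 genes fell and 0 rose under 45% GC, against 32.4% and 12.4% of all tested genes in that range, so the lower share was near the background. Between 45 and 50% GC, 6 of 20 fell and 2 rose, against 29.4% and 22.9%, and over 50% GC 3 of 21 fell and 6 rose, against 14.9% and 32.2%.

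Libraries also differed in how level depended on GC. The slope of log2 level per 10 points of GC was 0.101, 0.0131 and 0.283 in the ortho libraries, 0.233, -0.0736 and -0.0579 in the WT libraries, and -0.187, -0.155 and -0.156 in those without IL-2. Ortho IL-2 replicate 3 and WT IL-2 replicate 1 had the steepest positive slopes, and all 3 libraries without IL-2 had negative ones. The slope thus moved with the groups. Offsets fitted in each library would also take out a response to IL-2 that follows GC. A technical slope and such a response cannot be told apart here. With GC offsets fitted in each library, the calls among the 59 came to 9 higher and 24 lower for ortho IL-2 and to 11 and 17 for WT IL-2. With ortho IL-2, 20 of the 29 lower calls and 6 of the 8 higher calls were kept. Bub1, Cenpf, Ckap2, Ckap2l, Ect2, Kif11, Kif15, Kif18a and Mad2l1 were no longer called lower, nor Cdca8 and Plk1 higher, while Anln, Ccnb1 and Top2a were newly higher and Aurkb, Cenpm, Hjurp and Incenp newly lower. With WT IL-2, 14 of the 15 lower calls (Kif11 was lost) and all 8 higher calls were kept, Anln, Ccnb1 and Top2a were newly higher, and Aurkb, Nusap1 and Spc25 newly lower. Of all tested genes, the offsets gave 30.1% higher and 29.8% lower with ortho IL-2, and 29.5% and 27.8% with WT IL-2. Under the offsets the log2 fold change was -0.43 with ortho IL-2 and -0.48 with WT IL-2 for Cdc25b, -0.34 with ortho IL-2 and -0.43 with WT IL-2 for Cenpa, 0.30 with either for Ube2c, and 0.20 with either for Bub3, all within 1.5 times the values without them. Counting both kinds of test, 12 lower calls with ortho IL-2 were kept with GC offsets and in all 9 leave-one-out fits, namely Aspm, Cdc25b, Cenpa, Hmmr, Kif20b, Kif23, Melk, Ndc80, Nusap1, Pttg1, Spc25 and Ttk. Bub3, Cdc20, Cdk1, Ube2c and Ube2s were the 5 higher calls for which this was true. With WT IL-2 it held for 6 lower calls (Aspm, Cdc25b, Cenpa, Hmmr, Kif23 and Pttg1) and 4 higher calls (Bub3, Cdca8, Tpx2 and Ube2s). None of the 12 ortho lower calls was kept on unscaled RPKM, and only Cdc25b and Cenpa were kept with the covariate. Melk, Ndc80 and Spc25 were also lost without the filter on low values. With the covariate no higher call of either ligand was kept.

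**Figure D5:**
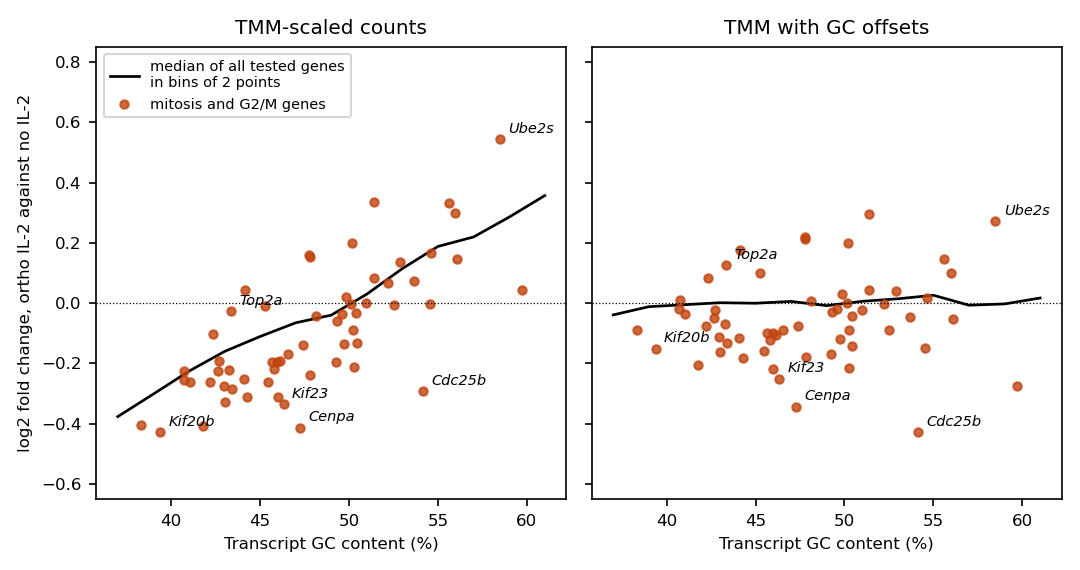
Log2 fold change of ortho IL-2 against no IL-2 (vertical axis) and transcript GC content in percent (horizontal axis) for the 59 genes (points), on TMM-scaled counts (left) and with GC offsets (right), with the median of all tested genes in bins of 2 points as a line. On TMM-scaled counts most genes under 45% GC lie below 0 and those called higher lie mostly over 50% GC, with Cdc25b (54.2% GC) among the lower ones; GC offsets leave 9 higher and 24 lower calls.

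Neighbouring pathways were listed alongside. Of 76 other mitotic genes, 11 rose and 27 fell with ortho IL-2 (median -0.11), or 14.5% and 35.5%, against 28.5% and 27.4% of all tested genes. With WT IL-2 9 rose and 17 fell (median -0.08), or 11.8% and 22.4%, against 25% and 22.9%, so the lower share was at the background. Rangap1 and Rcc1, which set the Ran gradient of spindle assembly, rose (0.39 and 0.36 with ortho IL-2, 0.38 and 0.37 with WT IL-2), as did Cks1b, a small CDK-binding protein (0.31 with ortho IL-2 and 0.27 with WT IL-2), and Clasp2, a microtubule plus-end protein (0.19 with ortho IL-2 and 0.27 with WT IL-2). Anapc1, a scaffold subunit of the APC/C, fell (-0.47 with ortho IL-2 and -0.45 with WT IL-2) as did the cohesin subunit Stag2 (-0.56 with ortho IL-2 and -0.45 with WT IL-2). Both were also called lower on unscaled RPKM, at -0.18 with ortho IL-2 and -0.23 with WT IL-2 for Anapc1, and -0.28 with ortho IL-2 and -0.24 with WT IL-2 for Stag2. The APC/C subunits among the 76 genes moved in both directions, and those other than Anapc1 are named after their values were seen. Anapc5 (0.15 with ortho IL-2 and 0.12 with WT IL-2) and Cdc16 (0.17 with ortho IL-2 and 0.25 with WT IL-2) rose with both ligands, and Anapc11 rose with ortho IL-2 (0.47). Cdc27 fell with ortho IL-2 (-0.33), and Cdc23 was called with neither.

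Some genes that hold cells back changed by more than any of the 59. Of 12 brakes of G2 and the cell cycle, 4 rose and 6 fell with ortho IL-2 (33.3% and 50%, against 28.5% and 27.4% of all tested genes), and 3 rose and 6 fell with WT IL-2 (25% and 50%, against 25% and 22.9%). Cdkn1a, the CDK inhibitor p21, had 158, 151 and 162 CPM with ortho IL-2, 164, 149 and 153 CPM with WT IL-2, and 94.5, 94.1 and 94.97 CPM without IL-2. All IL-2 libraries lay far above the others, at 0.73 (SE 0.05, adjusted p = 1.36e-06) with ortho IL-2 and 0.72 (SE 0.05, adjusted p = 1.59e-06) with WT IL-2 by edgeR. Gadd45g, of a family of stress-induced proteins that restrain CDK1, had 28.04, 28.4 and 33.9 CPM with ortho IL-2, 31.7, 25.8 and 23.9 CPM with WT IL-2, and 9.52, 9.88 and 8.99 CPM without IL-2. Gadd45a, of the same family, had 8.15, 7.93 and 7.97 CPM with ortho IL-2, 7.65, 8.90 and 9.81 CPM with WT IL-2, and 17.7, 15.3 and 15.6 CPM without IL-2. The pair thus moved in opposite directions, Gadd45g by 1.67 with ortho IL-2 and 1.52 with WT IL-2 and Gadd45a by -1.02 with ortho IL-2 and -0.89 with WT IL-2. Gadd45b, also of that family, fell on TMM-scaled counts, by -0.28 with ortho IL-2 and -0.45 with WT IL-2. On unscaled RPKM its ortho value was 0.0044. Cdkn1b, the CDK inhibitor p27 that IL-2 is known to lower in T cells, had 601, 642 and 542 CPM with ortho IL-2, 545, 638 and 715 CPM with WT IL-2, and 1042, 939 and 921 CPM without IL-2. Every library without IL-2 exceeded every library with it, and the log2 fold change by edgeR was -0.70 (SE 0.10, adjusted p = 0.000253) with ortho IL-2 and -0.61 (SE 0.10, adjusted p = 0.000652) with WT IL-2. Wee1, the kinase that keeps CDK1 off until mitosis, had 37.4, 36.5 and 34.0 CPM with ortho IL-2, 34.0, 40.4 and 38.4 CPM with WT IL-2, and 37.7, 36.1 and 36.6 CPM without IL-2, with overlapping groups and no call. On unscaled RPKM Wee1 was called higher (0.21 with either ligand). That was near the median of all tested genes on that scale, 0.247 with ortho IL-2 and 0.188 with WT IL-2. Cdkn1a, Gadd45g, Gadd45a and Cdkn1b kept their calls on that scale in both comparisons.

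Among 21 regulators of G2/M and E2F target genes, 4 rose and 7 fell with ortho IL-2, and 4 rose and 6 fell with WT IL-2. As a share 52.4% were called with ortho IL-2 and 47.6% with WT IL-2, near the 56% and 47.9% of all tested genes. Tfdp1, the DNA-binding partner of E2F proteins, had 77.4, 74.1 and 77.9 CPM with ortho IL-2, 78.1, 78.0 and 76.3 CPM with WT IL-2, and 51.4, 49.1 and 52.7 CPM without IL-2. IL-2 libraries all exceeded the others, and its relative Tfdp2 moved the other way (0.58 for Tfdp1 and -0.62 for Tfdp2 with ortho IL-2, 0.60 and -0.62 with WT IL-2). Rb1, the retinoblastoma protein that restrains E2F, had 194, 204 and 177 CPM with ortho IL-2, 183, 217 and 214 CPM with WT IL-2, and 311, 317 and 330.2 CPM without IL-2, below in all libraries with IL-2. EdgeR gave -0.74 (SE 0.07, adjusted p = 2.39e-05) with ortho IL-2 and -0.64 (SE 0.07, adjusted p = 6.33e-05) with WT IL-2, and Tfdp1, Tfdp2 and Rb1 were called in the same direction on unscaled RPKM. E2f3 rose (0.65 with ortho IL-2 and 0.73 with WT IL-2). Mybl2, the B-MYB factor of the MuvB complex, had 19.2, 15.8 and 17.6 CPM with ortho IL-2, 19.99, 16.6 and 16.4 CPM with WT IL-2, and 12.1, 13.4 and 14.9 CPM without IL-2, above in all IL-2 libraries. Its log2 fold change by edgeR was 0.39 (SE 0.11, adjusted p = 0.0162) with ortho IL-2 and 0.40 (SE 0.11, adjusted p = 0.0164) with WT IL-2, lost without the no IL-2 replicate 1 in either comparison (adjusted p = 0.0714 for ortho IL-2 and 0.0744 for WT IL-2) and without ortho IL-2 replicate 1 for ortho IL-2 (adjusted p = 0.0616). E2f8, a repressor of E2F targets, was called in neither comparison (-0.09 with ortho IL-2 and -0.03 with WT IL-2).

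Of 25 tested S phase genes, out of 26 listed, 6 rose and 5 fell with ortho IL-2 (24% and 20%), and 6 rose and 4 fell with WT IL-2 (24% and 16%). These shares lay below those of all tested genes, 28.5% and 27.4% with ortho IL-2 and 25% and 22.9% with WT IL-2. Mcm2, a subunit of the replicative helicase, rose (0.40 with ortho IL-2 and 0.31 with WT IL-2), while its partners Mcm4 (-0.25 with ortho IL-2 and -0.22 with WT IL-2) and Mcm6 (-0.36 with ortho IL-2 and -0.33 with WT IL-2) fell on TMM-scaled counts and were not called on unscaled RPKM. Uhrf1, which maintains DNA methylation through replication, rose with both (0.30 with ortho IL-2 and 0.29 with WT IL-2), and Rrm2, the ribonucleotide reductase subunit, by less (0.14 with ortho IL-2 and 0.21 with WT IL-2). For Rrm2 the ortho call was lost without ortho IL-2 replicate 1 or the no IL-2 replicates 1 or 3 (adjusted p = 0.0657 to 0.0826 by edgeR).

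Counting could blur some of these genes. Of the 59 genes, 19 overlap exons of another annotated gene, 17 of them on the other strand, and 3 (Ccnb1, Mad2l1 and Mki67) have a near copy elsewhere of at least 95% identity over at least 200 bases. Whether strand was used in counting is not given in the sources used here. Neither limit applies to 37 of the 59, among them Cdk1, Pttg1, Kif11, Kif23, Cenpa and Hmmr.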

How the data were processed

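RNA-seq was measured in 9 libraries, 3 per group, grouped by the treatment in the labels. The deposited tables give, per the file headers, whole read counts and RPKM for each of 31682 transcripts. The authors' notes (per the submitters' processing notes) name TopHat2 and Bowtie2, edgeR, bedtools 2.25.0 and SAMtools 0.1.8 with the mm10 build, but not their settings. How the authors' RPKM divisor was made is not given in the sources used here; it exceeded the reads in genes in every library. The growth text in the labels describes another assay and was not used for the groups.

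For each of 23992 symbols the transcript with most reads was taken, and 10702 genes that reached 1 RPKM in 3 or more libraries were tested. Counts were scaled by TMM and fitted over the 3 groups with edgeR's quasi-likelihood test (R 4.3.3, edgeR 4.0.16), and p-values were adjusted by Benjamini-Hochberg over all tested genes. CPM values are TMM-scaled. Alternatives used DESeq2 1.42.0, limma 3.58.1 on log2(RPKM + 1), lowess GC offsets of span 0.3, a covariate, a replicate block and left-out libraries. Depth was 16581624 to 58182835 reads per library, and intervals are at the 95% level. Levels by library are given for 17 genes set by name and for the 2 with the smallest p per role among those called in each comparison, besides Ube2c, Bub3, Ttk, Hjurp and Spc24, which were added after their values were seen. Of the neighbouring lists, up to 4 called genes with the smallest p and 4 genes set by name were given. The 59 genes, the other gene lists and these rules were chosen with earlier results of these data known. Near copies were found by BLAST of transcripts, and exon overlaps and GC content are those of GENCODE vM21 (GRCm38).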

Additional observations from a re-analysis of the deposited data

How the results depend on the processing

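The direction of the medians turned with the scale. With the authors' RPKM divisor as library size, calls came to 25 higher and 0 lower for ortho IL-2 (median 0.14) and 18 and 1 for WT IL-2 (0.12), and the median of ortho against WT IL-2 was 0.019; on unscaled RPKM ortho IL-2 gave 24 and 0 (0.14), WT IL-2 gave 17 and 1 (0.11), and ortho against WT IL-2 had a median of 0.018. Without the filter on low values, 11 genes were lower with ortho IL-2 (median -0.062) and 6 with WT IL-2 (-0.044). These are 18.6% and 10.2% of the 59, against 15.3% and 11.3% of all 19806 genes then tested. In that fit the lower shares were thus near the background. GC offsets gave medians of -0.069 for ortho IL-2, -0.061 for WT IL-2 and -0.016 for ortho against WT IL-2, and the covariate gave 0 higher and 2 lower calls for ortho IL-2 and 0 and 3 for WT IL-2. Leaving out ortho IL-2 replicate 3 and WT IL-2 replicate 1 together gave a WT median of -0.068. The causes were not tested. Leave-one-out fits gave 5 to 9 higher and 18 to 31 lower calls with ortho IL-2 (median -0.15 to -0.12), 4 to 8 higher and 6 to 20 lower with WT IL-2 (-0.12 to -0.065), and 0 to 0 for ortho against WT IL-2 (-0.067 to -0.017). With WT IL-2 the lower share of the 59 lay below that of all tested genes in some of these fits.

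Log2 fold changes of single genes that turned, given for the divisor and for unscaled RPKM, were with ortho IL-2 0.059 and 0.054 for Melk, 0.016 and 0.015 for Bub1, 0.014 and 0.014 for Kif11, 0.24 and 0.23 for Kif20a, 0.016 and 0.017 for Spc25, 0.27 and 0.26 for Aurkb, 0.081 and 0.078 for Prc1, 0.27 and 0.25 for Anln, 0.019 and 0.021 for Ect2, 0.25 and 0.25 for Top2a, 0.11 and 0.11 for Mki67, 0.14 and 0.13 for Cdca2, 0.032 and 0.030 for Mcm4, 0.0014 and 0.0044 for Gadd45b, and 0.24 and 0.21 for Wee1. With WT IL-2 they were 0.042 and 0.039 for Melk, 0.028 and 0.026 for Kif11, and 0.061 and 0.059 for Prc1. GC offsets turned Anln to 0.10 and Top2a to 0.13 with ortho IL-2, also with the replicate block.

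With the replicate number as a block, calls came to 7 higher and 28 lower for ortho IL-2, 7 and 15 for WT IL-2, and 0 for ortho against WT IL-2. With the replicate block and GC offsets together calls came to 9 higher and 21 lower for ortho IL-2 (median -0.069) and 11 and 15 for WT IL-2 (-0.061), with a median of -0.015 for ortho against WT IL-2. Same-numbered samples did not deviate together in a regular way (correlations from -0.66 to 0.44). Deviations from means of 3 libraries cannot decide whether the numbers pair the samples, and the labels do not state it. The lowest count of any of the 59 genes in a library was 97 reads, and counting error was not estimated on its own.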
